A study of Mus musculus with 4 samples.

Results

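The Ihh window is the 100 kb of mouse chromosome 1 from 74930001 to 75030000 in build mm9, which holds the gene Ihh. It was followed as a viewpoint of 10 bins of 10 kb, out of 1000 bins in the map from 71000001 to 81000000. Its partners were all bins of the map at least 20 kb away, and the 161 bins from 75900001 to 77510000, called the Epha4 domain below, were compared with the rest. The window was chosen by position, for lying inside the interval that the InvF allele turns around. That it holds Ihh is taken from this definition and was not checked on an mm9 annotation.

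Contacts were measured by capture Hi-C, which counts ligated pairs of crosslinked genome segments after enrichment with probes, here around Epha4. The tissue was the distal part of limb buds at E11.5, taken from wild-type (WT) embryos and from embryos homozygous for the DelB, DelBs or InvF allele. Each genotype had 1 library, and the labels used here do not say how many embryos it came from, so variation between embryos is unknown and nothing was tested. All intervals in brackets are 95% intervals for counting error alone. Each mutant allele was located from the maps. A stretch of 1670 kb, from 76390001 to 78060000, was missing from DelB. The stretch missing from DelBs began at the same place and ended at 77860000, which is 1470 kb. InvF carried an inversion of 1070 kb from 74830001 to 75900000. The libraries held between 5155274 and 6073471 counts, and the usable pairs of the Ihh window made up 88135 of them in InvF, 63252 in WT, 94756 in DelBs and 87432 in DelB.

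Ihh encodes Indian hedgehog, a secreted signalling protein that controls the proliferation and maturation of chondrocytes in growing bones. Rearrangements around this gene are known from limb malformations, and the neighbouring Epha4 domain is known to hold enhancers that act in the limb bud. A domain of this kind is a stretch of chromatin whose segments contact each other more often than they contact sequence beyond its borders, and an inversion can carry a gene from one side of such a border to the other. Contact counts do not measure expression, which was not measured in these libraries. In the GRCm38 RefSeq table, used for names and order alone, Ihh lies between Cfap65 and Nhej1. There are 5 protein-coding genes between Wnt6, a gene for another secreted signal, and Ihh, and 25 between Ihh and Slc4a3, the neighbour of Epha4.

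The promoter that the window was chosen for is shown because its gene is what the inversion carries towards the Epha4 domain. RefSeq gives it in GRCm38.p6 at chr1:74951623-74951922 on the minus strand, which is not the build of the maps, so it was not placed on 1 of the 10 bins. Capitals mark the GC box letters GGGCGG or their reverse complement CCGCCC.
Ihh: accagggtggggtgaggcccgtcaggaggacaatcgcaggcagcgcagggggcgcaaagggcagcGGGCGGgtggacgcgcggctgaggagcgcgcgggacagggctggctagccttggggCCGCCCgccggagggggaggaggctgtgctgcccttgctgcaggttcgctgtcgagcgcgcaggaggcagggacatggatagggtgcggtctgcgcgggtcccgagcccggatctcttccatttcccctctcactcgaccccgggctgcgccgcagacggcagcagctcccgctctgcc
These 300 bases hold 2 matches, 1 in each direction, and 30 CG pairs. Either GC box form occurs in 35.7% of the 32851 promoters of that length in the table, and 11.7% of them have at least as many CG pairs. The matches are a description of the sequence, and the contact maps do not resolve them.

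The inversion moved the Ihh window next to the Epha4 domain and away from its former left neighbours. On the WT allele 870 kb separate the window from the Epha4 domain and 100 kb separate it from the left end of the inverted interval. On the InvF allele the gaps are exchanged, with 100 kb to the Epha4 domain and 870 kb to the sequence left of the inversion. The window also points the other way, so that its first bin, from 74930001, lies nearest to the Epha4 domain. Bin pairs between window and domain spanned 880 to 2570 kb in WT and 110 to 1800 kb in InvF.

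The Epha4 domain took up a larger part of the window's contacts in InvF than in WT. It received 3767 counts in WT and 19201 in InvF over the same 1610 pairs of bins. That is 5.96% of the window's counts in WT (5.77% to 6.14%) and 21.8% in InvF (21.5% to 22.1%). After scaling, InvF stood at 4.10 times WT (3.96 to 4.25). For all other partners together the ratio was 0.932 (0.922 to 0.942). Sequence left of the inversion made up 21.6% of the window's counts in WT and 8.25% in InvF, where it was the smallest of the 4 parts of the map. The inverted interval itself held 66.3% in WT and 55.3% in InvF, and the map beyond the Epha4 domain 6.15% and 14.7%.

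**Figure D1:**
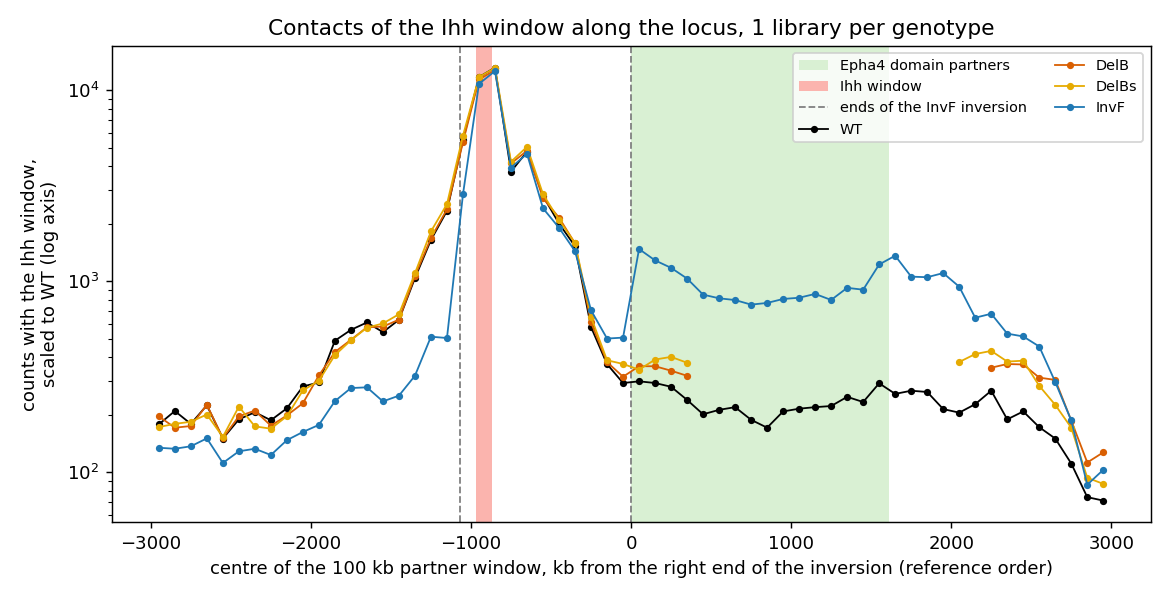
Counts of the Ihh window with each 100 kb partner window, scaled to WT, on a log axis, against the position of the partner in kb from the right end of the inversion in reference order, for the 4 genotypes with 1 library each. The green band marks the Epha4 domain, where the InvF line runs above the others, and windows that touch a deletion are left out for DelB and DelBs.

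Along the Epha4 domain the higher level was spread over all partners rather than held by a few of them. All 161 partner bins of 10 kb had a higher scaled count in InvF than in WT, with ratios from 2.17 to 7.88 and a median of 4.10. The interval lay above 1 in all 161. All pairs of the window with these bins are closer together in InvF than in WT. No share over the other 10 kb bins of the map was computed, so the count does not set the domain apart. Counts per 10 kb bin ran from 4 to 50 in WT and from 21 to 292 in InvF, so single bins are known only roughly.

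In windows of 100 kb the InvF counts lay between 938 and 1833 along the domain. The window next to the junction, 75900001 to 76000000, had 299 counts in WT and 1833 in InvF. Its ratio of 4.93 (4.36 to 5.59) was the highest of the 16 windows in the domain. The lowest ratio, 3.59 (3.10 to 4.18), was at 77100001 to 77200000, from 222 and 992 counts. The last window within the domain, 77400001 to 77500000, had 292 counts in WT and 1522 in InvF, a ratio of 4.19 (3.70 to 4.77). Between the ends the InvF counts were lowest, at 938, in the window 76600001 to 76700000 and were higher again towards the right edge. WT showed the same shallow course at a lower level, with 171 to 299 counts per window.

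The fold did not end at 77510000, the right edge of the interval called the Epha4 domain. That edge was set for the comparison and was not read from the maps as a border. The same holds for the left edge, at the right end of the inversion. The window across the right edge, 77500001 to 77600000, had 257 counts in WT and 1691 in InvF, and its ratio of 5.29 (4.64 to 6.06) was the highest of all partner windows with at least 50 counts. The last 200 kb of the domain stood at 4.11 times WT (3.74 to 4.52) and the first 200 kb beyond it at 4.54 times (4.14 to 4.99), with overlapping intervals. A lower fold began further on. The window 77900001 to 78000000 was at 4.57 times WT and the next at 2.84 times (2.45 to 3.30), and the ratio was 1.16 (0.857 to 1.59) at 78700001 to 78800000. Over the whole map beyond the domain it was 2.68 (2.59 to 2.78).

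**Figure D2:**
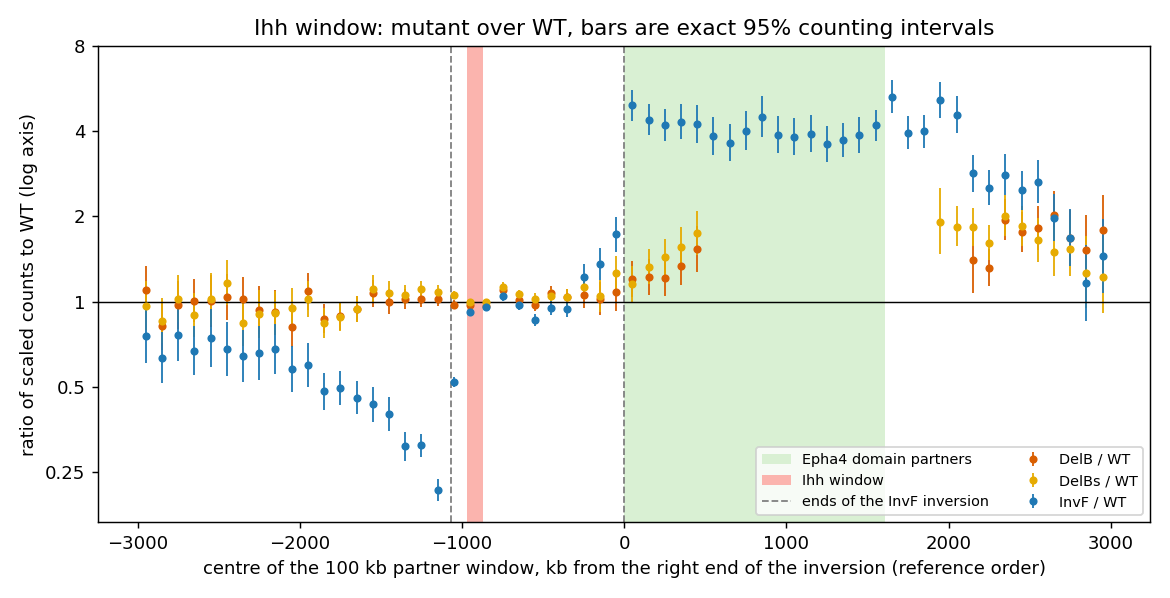
Ratio of each mutant to WT for the Ihh window with each 100 kb partner window, on a log axis, with exact 95% counting intervals as bars and at least 50 counts in WT or InvF. InvF lies between 3.59 and 4.93 over the Epha4 domain and below 1 in the plotted windows left of the inversion, while inside the inverted interval DelB lies between 0.969 and 1.10 and DelBs between 0.998 and 1.26.

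Partner windows past 2-fold were more common for the Ihh window than for the map. The window was chosen for lying inside the inverted interval, so its distance to all partners outside that interval changes in InvF. The share over the map also covers pairs that keep their distance, so the shares compare unlike pairs. InvF was higher by more than 2-fold in 26 of 100 partner windows, against 2.96% of 8603 combinations of 100 kb windows over the map. All 16 windows of the Epha4 domain were among these, with 1 across its right edge and 9 beyond it. InvF was lower by as much in 9 of 100, all of them left of the inversion, against 4.64% over the map. No window inside the inverted interval passed the limit (0 higher and 0 lower). The authors' deposited table of differences between InvF and WT has 178 values above 0 and 0 below it among the 1610 pairs of the window with the Epha4 domain. That is 11.1% of these pairs, and 3.88% in the 490 pairs nearest the junction. The deposited table covers only 73000001 to 79000000 of the map. Beyond the domain and up to 79000000 the share was higher, with 242 of 1490 pairs (16.2%) above 0 and 0 below. Over the whole of the authors' deposited table, pairs at least 20 kb apart are above 0 in 2.12% and below 0 in 2.39%.

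The sequence that the window left behind was met less often in InvF, most of all close to the breakpoint. Partners left of the inversion had 13652 counts in WT and 7274 in InvF, a ratio of 0.428 (0.416 to 0.441). With each library's decay matched at the distance on its allele, the direction was turned, to 1.26 (1.22 to 1.30), over the pairs for which that decay was known. For the last 500 kb before the inversion the matched ratio was 0.965 (0.921 to 1.01), so there the direction was not turned. Without matching, these 500 kb stood at 0.261 (0.249 to 0.273), from 7375 and 2392 counts. The lowest unmatched ratio among the 38 windows left of the inversion was 0.216 (0.198 to 0.236) at 74700001 to 74800000, the last full window before the breakpoint. The highest was 1.10 and the median 0.665. In DelB and DelBs, where this stretch is intact, all partners left of the inversion together were at 0.982 (0.960 to 1.00) and 1.01 (0.987 to 1.03).

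Nearby segments meet more often than distant ones whatever the allele, so observed counts were divided by the level that each library's own decay gives at the distance on its allele. In InvF the window met the Epha4 domain at 0.876 times the expected level (0.864 to 0.889), while WT, at its longer distance, stood at 0.684 (0.663 to 0.707). The ratio of these values was 1.28 (1.24 to 1.33), far below the 4.10 of the counts. By this measure 0 of the 16 windows of the domain were past 2-fold (2.40% were higher and 3.07% lower over the map). The measure was not level along the domain. In InvF it was 0.401 at the window next to the junction and 4.02 at 77400001 to 77500000, and in WT 0.396 and 2.35. The mean count per untouched pair in InvF was 45.2 at 200 kb and 3.42 at 1800 kb. The counts of the window per 100 kb of the domain are sums over many pairs, so only the course can be compared. These sums lay between 938 and 1833 over that range. A ratio of this measure between unequal distances therefore compares different parts of this course.

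At the near end the window met its new neighbours less than the decay gives. The first 490 kb of the Epha4 domain, up to the left end of the deletions, stood at 0.525 times the expected level in InvF (0.513 to 0.537). In WT the 500 kb left of the inversion, which lie at the same gap of 100 kb, stood at 0.678 (0.662 to 0.693). At the gap of 870 kb the left 500 kb were at 0.654 in InvF (0.628 to 0.681) and the first 490 kb of the Epha4 domain at 0.454 in WT (0.430 to 0.480). At both gaps the left neighbours thus had the higher level, and the counting intervals did not overlap. These values are not corrected for bin coverage, and no balanced value is given for these parts. For the whole domain in InvF, balanced values moved the level from 0.876 to 0.610, so the part of coverage was not tested.

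A comparison at equal distance is given by the sequence that occupies the new place in WT. Counted on the chromosome, the window lies in InvF where 75700001 to 75800000 lies in WT, so that all distances to the Epha4 domain are equal. That WT window had 33986 counts with the domain, against 19201 for the Ihh window in InvF. After scaling the Ihh window reached 0.454 of the level of the sequence it replaced (0.446 to 0.462). Its mean WT coverage per bin, 10138.9 counts, was 0.898 of that of the replaced window, so the ratio lies below the ratio of coverage. With balanced values, which even out coverage, it was 0.442. In WT the replaced window met the domain at 1.96 times the expected level, and the Ihh window at 0.684 times. The comparison is therefore with sequence already rich in contacts with the domain, not with a neutral level.

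The ratio to the replaced window was lowest next to the junction and highest at the far end of the domain. With the first 100 kb of the domain the Ihh window reached 0.318 of the level of the replaced window (0.301 to 0.335), the lowest of the 16 windows. With the last full window, 77400001 to 77500000, it reached 0.560 (0.524 to 0.598), the highest. Between these ends it did not rise steadily, with 0.531 (0.491 to 0.574) at 76300001 to 76400000 and 0.430 (0.398 to 0.464) at 76800001 to 76900000. With the first 200 kb beyond the domain the Ihh window reached 0.762 (0.724 to 0.801) of the level of the replaced window.

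Position within the inverted interval went with the size of the ratio. The neighbouring window towards the junction, 74830001 to 74930000, had 3127 counts with the Epha4 domain in WT and 46367 in InvF, a ratio of 11.9. The Ihh window followed at 4.10. The window on its far side, 75030001 to 75130000, had 2582 and 9683 counts, a ratio of 3.02 (2.89 to 3.15). Further windows had lower ratios, with 1.72 at 75130001 to 75230000 and 0.617 at 75330001 to 75430000. The lowest, 0.0677, was at 75630001 to 75730000. Windows past the middle of the inverted interval lie further from the domain in InvF than in WT. Set against the WT sequence at the same place, the first 3 of these windows reached 0.816 (0.805 to 0.826), 0.454 and 0.188 (0.184 to 0.192). This second ratio was not lower throughout with distance from the junction: the next windows stood at 0.333, 0.672, 0.624 and 0.899, and the one from 75530001 to 75630000 at 1.23 (1.17 to 1.29). The mean WT coverage of the window towards the junction and of that on the far side was 0.681 and 0.506 of that of the windows they replaced. For the windows at 0.899 and 1.23 it was 1.206 and 1.765, so both ratios lie below the ratio of coverage. Coverage was thus uneven between the windows compared, and its part in these ratios was not tested.

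The 3 inverted windows whose profile along the 16 windows of the domain was most like that of the Ihh window in InvF were 74830001 to 74930000, with a Pearson correlation of 0.998, 75030001 to 75130000, with 0.995, and 75230001 to 75330000, with 0.987. The measure was log2 of observed over expected. These profiles share the library, the coverage of the partners and the decay, and the lowest correlation of an inverted window with the Ihh window was 0.910, in the window that holds the bin at the right breakpoint.

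**Figure D3:**
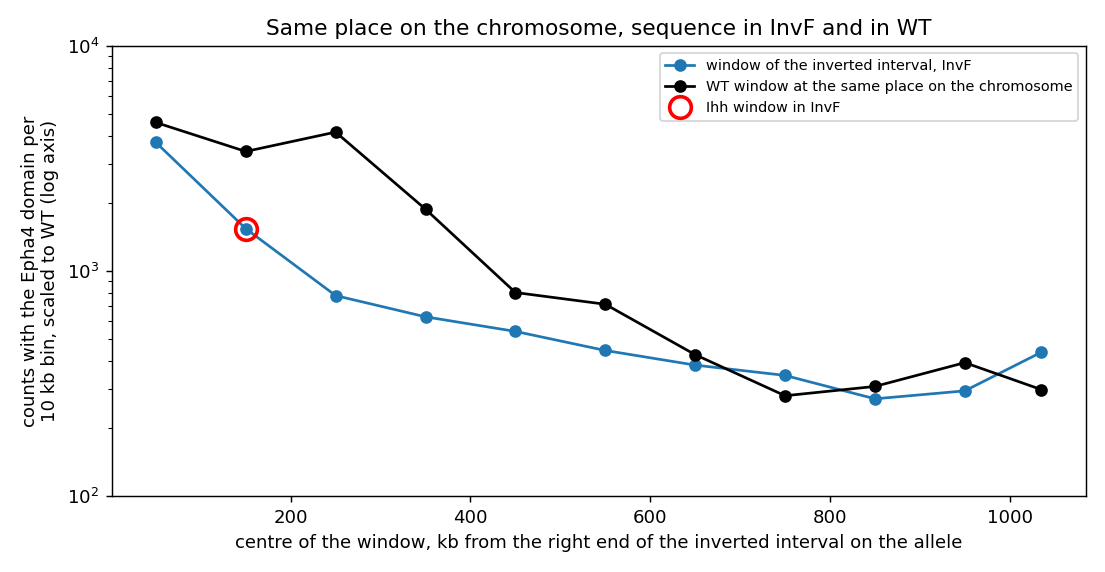
Counts with the Epha4 domain per 10 kb bin, scaled to WT, on a log axis, for windows of the inverted interval in InvF and for the WT windows at the same place on the chromosome, against their distance from the right end of the inverted interval on the allele. The Ihh window (red ring) lies at 0.454 of the WT window at its place, and the last point holds the bin at the right breakpoint, without which its ratio of 1.46 becomes 0.857.

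Within the window the ratio was graded from bin to bin. The first bin, 74930001 to 74940000, nearest to the junction in InvF, had 351 counts with the Epha4 domain in WT and 2690 in InvF, a ratio of 6.16 (5.51 to 6.91). The ninth, 75010001 to 75020000, had 308 and 1166, and its ratio of 3.04 (2.68 to 3.46) was the lowest of the 10. The last bin, 75020001 to 75030000, had 223 and 887 counts and a ratio of 3.20 (2.76 to 3.72). All 10 bins were above 3, so no single bin carried the result. Contacts with sequence left of the inversion ran the opposite way, from 0.342 in the first bin to 0.509 in the eighth. Contacts within the inverted interval lay between 0.873 and 0.969 in all 10 bins. Coverage was uneven, with 12782 WT counts in the seventh bin and 4838 in the last.

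**Figure D4:**
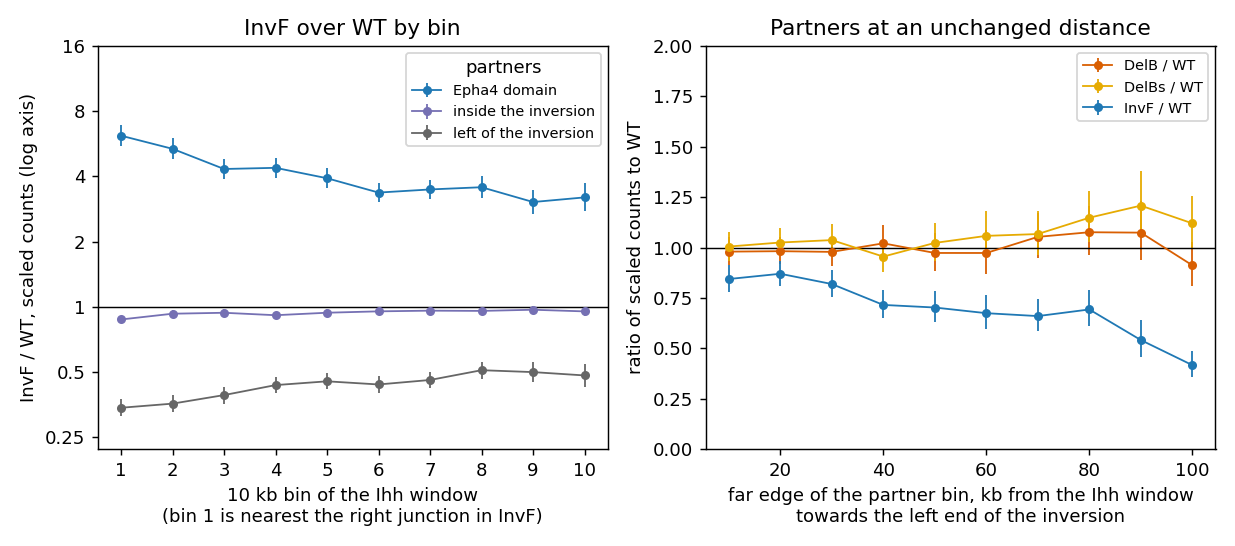
The left panel gives InvF over WT for each 10 kb bin of the Ihh window with 3 classes of partners on a log axis, and the right panel gives each mutant over WT for the 10 partner bins between the window and the left end of the inversion. Bars are exact 95% counting intervals; the Epha4 ratio runs from 6.16 in bin 1 to 3.20 in bin 10, and the InvF points on the right lie below 1.

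Pairs within the inverted interval keep their distance in InvF, and those in and around the window lay close to the WT level. Inside the window itself the ratio to WT was 0.961 (0.932 to 0.990), and with the 100 kb to its right 0.975 (0.950 to 1.00). The ratios furthest from 1 lay at both ends of the interval. With the 100 kb between the window and the left breakpoint, the stretch that separates it from the Epha4 domain in InvF, the window stood at 0.744 (0.721 to 0.768), from 8138 and 7531 counts. The same pairs were at 0.995 (0.967 to 1.02) in DelB and 1.04 (1.01 to 1.07) in DelBs.

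The ratio was lower towards the breakpoint. It was 0.844 (0.781 to 0.911) with the adjoining bin, 74920001 to 74930000, and 0.417 (0.357 to 0.486) with the bin at the breakpoint, 74830001 to 74840000, from 488 and 253 counts. All 10 bins of this stretch were below 1 in InvF, at 0.417 to 0.870, while DelB had 0.912 to 1.08 and DelBs 0.955 to 1.21. At the other end lies the last 300 kb of the inverted interval, 75600001 to 75900000. In WT this stretch adjoins the interval called the Epha4 domain, and in InvF it lies left of the window. In WT its parts 75630001 to 75730000 and 75730001 to 75830000 met that interval at 2.69 and 2.22 times the expected level. The left edge of that interval is the end of the inversion and is not taken as a border. The Ihh window met the last 300 kb at 1.39 times WT (1.29 to 1.49), from 1236 and 2129 counts, and at 1.73 times (1.50 to 1.99) in the window 75800001 to 75900000. The bin at the right breakpoint, 75890001 to 75900000, stood apart from its neighbours, at 3.83 times WT (2.37 to 6.46), from 21 and 100 counts. It also had 1857 InvF counts with the Epha4 domain, against 225 to 463 in the 10 bins before it, and whether its pairs keep their distance was not tested. Without this bin the ratios were 1.34 (1.25 to 1.44) and 1.57 (1.35 to 1.82). DelB and DelBs had 1.05 (0.979 to 1.13) and 1.14 (1.06 to 1.22) with the same 300 kb.

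As background, both deletions are known to remove Epha4, which encodes a receptor tyrosine kinase for ephrins. They do not move the window, and they leave 490 kb of the Epha4 domain, from 75900001 to 76390000, at an unchanged distance. The counts of this part were 7092 in InvF, 2707 in DelBs, 2351 in DelB and 1283 in WT. As ratios to WT, InvF had 4.45 (4.19 to 4.72), DelBs 1.41 (1.32 to 1.51) and DelB 1.28 (1.19 to 1.37). For partners outside the Epha4 domain DelB and DelBs stood at 1.02 (1.01 to 1.03) and 1.05 (1.04 to 1.06). Over the 5 kept windows the ratios were higher towards the deletion, with 1.20 at the inversion and 1.53 at the deletion in DelB. DelBs had 1.15 and 1.74 at the same ends. With each library's decay matched, the ratios for the kept part were 1.18 (1.10 to 1.26) and 1.30 (1.22 to 1.39). Of these windows 0 of 5 passed 2-fold in either deletion, against 7.95% of windows higher over the map in DelB and 6.04% in DelBs. In the authors' deposited tables for DelB and DelBs, 0 of the 490 pairs of the window with this kept part differ from 0. Over the whole of the authors' deposited table for DelB, 1.58% of pairs are above 0 and 0.142% below it, and in that for DelBs 1.55% and 0.158%.

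Beyond the deletions the distance to the window is shorter in the mutants. In DelB the window met the 500 kb right of the deletion 1.67 times as often as in WT (1.55 to 1.80), with 2440 counts against 1020. The matching ratio of DelBs was 1.83 (1.70 to 1.96), with 2938 counts against 1074. Divided by the expected level at the shortened distance, DelB had 0.980 (0.942 to 1.02) and DelBs 1.10 (1.06 to 1.14), while WT had 3.45 and 3.05 for the same partners at the full distance. By this measure the direction was therefore turned, as DelB stood at 0.285 times WT (0.264 to 0.306) and DelBs at 0.361 times (0.337 to 0.388). Over all partners 3 of 84 windows (3.57%) were past 2-fold higher in DelB, against 7.95% over the map. In DelBs it was 1 of 85 (1.18%), against 6.04%. All of them lay beyond the deletion, and both shares were below those over the map. No partner window was lower by as much (0 in both, against 0.0305% and 0.0739%).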

How the data were processed

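Capture Hi-C maps of 4 libraries were used, 1 each for WT, DelB, DelBs and InvF. Per the submitters' processing notes, Bowtie2 2.2.6 mapped the reads, and the build was mm9. The authors' deposited raw maps give counts, as whole numbers, for each pair of 10 kb bins, and their file names state a mapping quality of 30. The deposited balanced maps give a signal after KR balancing, per the file names. The authors' deposited difference maps, from 73000001 to 79000000, give a score, and no source used here states its scale. Unmatched columns numbered 0. No source used here says whether PCR duplicates were removed.

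Rearrangements were read from the maps: deletions as runs of bins with under 10% of their WT share, the inversion as the pair of breakpoints with the highest contrast between joined and separated corner blocks. Scaling used pairs 20 kb to 2 Mb apart within stretches untouched by any rearrangement. Relative to WT the factor was 1.24 in InvF, 1.50 in DelBs and 1.43 in DelB. Observed over expected divides counts by the mean of such pairs of the same library at the allele's distance, without correcting for bin coverage. Ratios have exact conditional binomial intervals, observed over expected values exact Poisson intervals and shares Clopper-Pearson intervals, all at 95% and for counting error alone.

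Partner windows of 100 kb were tiled from the left edge of the Epha4 domain and compared where WT or the mutant had at least 50 counts. Windows were named where they adjoin an edge, or have the highest or lowest value. The 3 inverted windows with the most similar profile were named too. The window, the intervals and the comparisons were chosen with earlier results of these data known, and the comparison at the same place and the parts of the inverted interval were added after values were seen. Calculations used Python 3.11.15 with numpy 2.4.6, scipy 1.17.1 and, for plots, matplotlib 3.10.9. The functions were tested on simulated maps.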

Additional observations from a re-analysis of the deposited data

Results flagged for a closer look

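Pairs between the Ihh window and bins that a deletion removes are outside every comparison, and they were not empty. In DelB they held 130 counts, which is 2.41% of the scaled WT level (2.00% to 2.87%). In DelBs they held 83 counts, or 1.65% (1.31% to 2.05%). Both exceed the 3 counts that an empty interval allows. Summed over every bin of the deletion the counts were 131 in DelB and 86 in DelBs, so the values above leave out a few pairs.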

How the results depend on the processing

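All InvF ratios to WT kept their side of 1 under the other scaling, unit, separation, bins and edges tried. Scaling by the total of all counts gave InvF to WT ratios of 4.27 for the Epha4 domain, 0.446 left of the inversion, 0.972 inside it, 2.79 beyond the domain, 0.775 for the 100 kb towards the left breakpoint and 0.473 for the comparison at the same place. It moved the deletions more, to 1.69 in DelB and 1.84 in DelBs for the kept part and to 2.21 and 2.39 beyond the deletion, since it also counts pairs that the deletions remove or join. Balanced values gave, in the order of the InvF ratios above, 3.92, 0.405, 0.885, 2.50, 0.650 and 0.442, with an observed over expected of 0.610 for the domain. The middle 4 bins of the window gave 3.77 for the domain, 0.446 on the left, 2.56 beyond, 0.706 towards the left breakpoint and 0.485 at the same place, with an observed over expected of 0.929 and a ratio to WT of it of 1.18. Leaving out 100 kb at each edge of the domain gave 0.929 and 1.36 for these, and 0.469 at the same place. An expected level from all pairs gave 0.815 and 1.42. Pairs at least 50 kb apart gave 0.719 towards the left breakpoint.

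Matching each distance, an alternative added after values were seen, turned 3 ratios to the other side of 1: left of the inversion InvF was at 1.26, and beyond the deletions DelB was at 0.285 and DelBs at 0.361. Left of the inversion this held for the whole stretch but not for its last 500 kb, which was at 0.965 (0.921 to 1.01). These ratios compare observed over expected at unequal distances, and the cause was not tested. It gave 1.70 for InvF beyond the domain, and 1.18 and 1.30 for the kept part in DelB and DelBs. Windows past 2-fold numbered 56 higher and 16 lower at 50 kb and 13 and 4 at 200 kb, against 26 and 9 at 100 kb. The number of windows also differs with their size, and shares over the map were not computed at 50 and 200 kb. These counts can therefore not be compared directly. A limit of 3-fold gave 3 lower. Observed over expected, for the 69 windows with a known decay, gave 6 higher and 0 lower. Of these 6, 3 were left of the inversion and 0 in the Epha4 domain. No paired analysis was possible because each genotype has 1 library.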
